A study of Mus musculus with 16 samples.

Results

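The genes described here are 10 members of the BCL2 family, chosen by name from the 43432 gene rows of the RNA-seq table, together with the Ago2 CLIP bins that lie on their strand. They comprise 5 survival genes (Bcl2, Bcl2l1, Mcl1, Bcl2a1b and Bcl2a1d), 3 BH3-only death genes (Bcl2l11, Bbc3 and Pmaip1) and 2 pore formers (Bax and Bak1). All 10 were among the 13091 genes tested, those with a mean of at least 10 normalized counts.

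The samples were splenic B cells of the mouse strain written C57B6L/J in the labels, of 2 genotypes called KO and Flox, in a study of targets of miR-221-3p and miR-222-3p. Cells of both genotypes were cultured with IL-21 at 10 ng/ml, IL-4 at 25 ng/ml and anti-CD40 at 500 ng/ml, and the culture lasted 4 days. The series has 4 RNA-seq and 4 Ago2 HITS-CLIP libraries per genotype. The age of the mice, the Cre that made the deletion and whether each library came from its own mouse are not given in the sources used here, so p-values measure only the spread between these samples. HITS-CLIP sequences RNA fragments crosslinked to a protein, in this case the miRNA-loaded Argonaute protein Ago2.

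BCL2 family proteins decide whether the outer membrane of mitochondria stays intact. Survival members hold the pore formers BAX and BAK in check, and BH3-only proteins release that hold by binding the survival members or the pore formers. In B cells, signals from CD40 and cytokine receptors are known to raise survival members such as BCL-XL, the product of Bcl2l1, and A1, the product of the Bcl2a1 genes, while BIM, the product of Bcl2l11, removes cells that lose those signals. Bbc3, which encodes PUMA, and Bcl2l11 have both been described as miR-221/222 targets in other cells.

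The mature sequences of the miRNAs that the study is about are shown because a target site pairs with the seed, bases 2 to 8, which is in capitals. They come from RefSeq on GRCm38.p6, where both lie on the minus strand of chromosome X, at 19146307 to 19146329 for miR-221-3p and at 19146901 to 19146923 for miR-222-3p.
miR-221-3p: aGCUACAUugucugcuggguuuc
miR-222-3p: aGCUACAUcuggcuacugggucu
The seeds are the same, GCUACAU, so the pair can bind the same sites. The RNA-seq row of Mir221 held no read in KO, and in Flox 3 reads in replicate 3 and 1 read in replicate 4. That of Mir222 was at 0 throughout, so these rows are too sparse to check the genotype labels. No 3′ end sequence of the members was used here, so sites for this seed were not searched.

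RNA-seq depth was 22947689 to 39236132 reads in KO and 25421025 to 39616596 in Flox. B cell markers were high in every library, with 7 genes summing to 92760 to 116136 normalized counts in KO and 105688 to 110794 in Flox. Of 8 myeloid markers 6 had a mean below 10 and S100a8 and S100a9 were at 0, and the 8 summed to 72.0 to 102.9 in KO and 47.9 to 91.4 in Flox. Of 7 T cell markers 6 had a mean below 10, with Lck, which B cells also express, making up most of the sum of 1587 to 1944 in KO and 1416 to 1625 in Flox. Of 4 NK cell markers 3 had a mean below 10 and Ncr1 was at 0. Prf1 alone made up most of the NK sum of 158.5 to 217 in KO and 93.9 to 147 in Flox. Of 4 erythroid markers 3 were at 0. KO 1 and KO 3 stood apart from the other libraries on the first principal component, at -37.97 and -35.62, against -15.35 and 7.47 in KO 2 and KO 4 and 14.48 to 26.49 in Flox. Mitochondrial transcripts took 4.27% of the reads of KO 3, 1.80 to 3.14% in the other KO libraries and 1.84 to 2.06% in Flox. Among the KO libraries, KO 3 and KO 2 were each the lowest in 4 of the 10 members, and KO 1 and KO 4 in 1 each. The part of these library differences in the results was not tested.

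In KO against Flox B cells, 0 of the 10 members passed the threshold of 0.05 on the limma adjusted p, where 0.0687% of all genes tested did (0.0535% higher and 0.0153% lower in KO). The edgeR test on reads recovered from the table also called 0, against 0.0687% of all genes (0.0153% lower). DESeq2 called 2 members, Bcl2a1d and Pmaip1, both lower in KO, where it called 1.76% of genes and 0.563% as lower. The authors' deposited table has an adjusted p under 0.05 for 1.58% of its genes and for none of the 9 members that have one there. By unadjusted limma p under 0.05, 4 members were lower (Bcl2a1d, Pmaip1, Bbc3 and Bcl2l1) against 7.39% of all genes, and 1 was higher (Bak1) against 7.74%. The KO and Flox libraries did not overlap in 4 members, against 7.97% of all genes. Of these, 3 were lower in KO, Bcl2a1d, Pmaip1 and Bbc3, where 3.79% of all genes did so, and 1 was higher, Bak1, against 4.18%. The median log2 fold change was -0.17 over the members and -0.01 over all genes tested. In RNA of a bulk culture, fewer cells of a kind and less RNA per cell cannot be told apart.

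**Figure D1:**
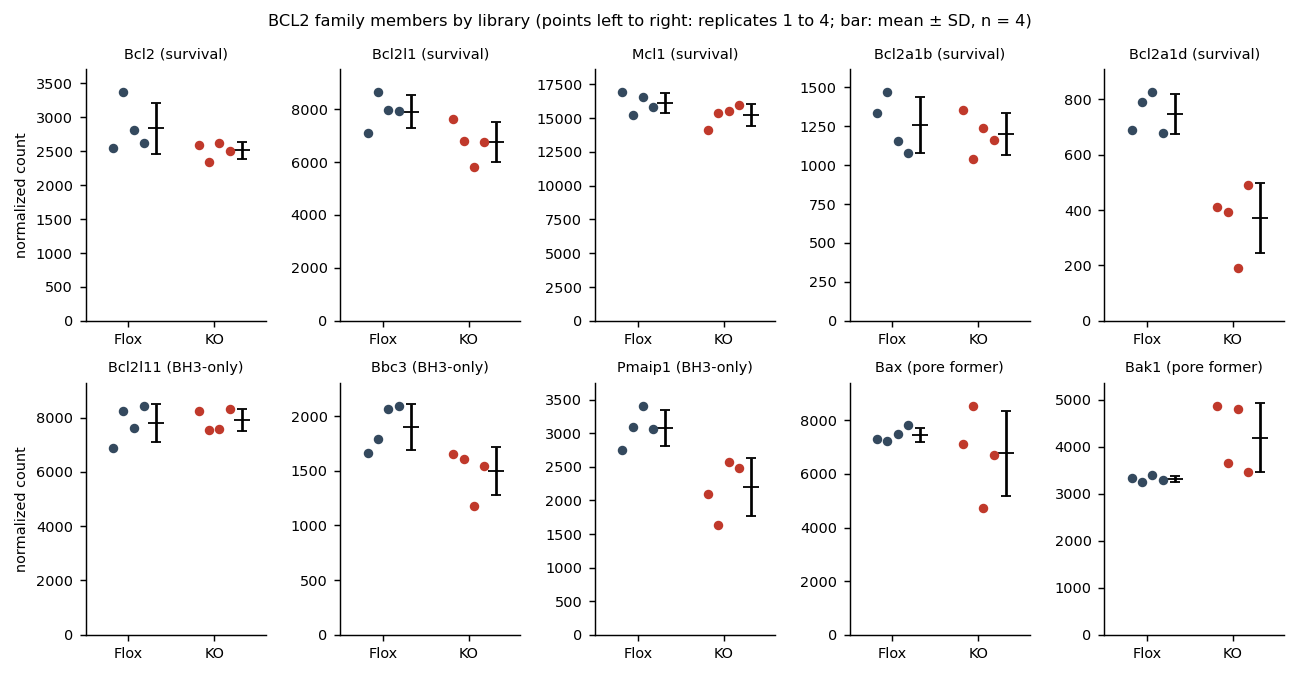
Normalized counts (vertical axes, from 0) of the 10 members in each Flox (dark) and KO (red) library, with the mean and SD of the 4 libraries beside each group. The groups separate in Bcl2a1d, Bbc3, Pmaip1 and Bak1 and overlap in the other panels.

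Among the survival genes Mcl1, Bcl2, Bcl2l1 and Bcl2a1b overlapped between genotypes, and Bcl2a1d did not. Levels are not compared between genes, since the RNA values are not per length. Mcl1, a short-lived survival factor that activated B cells need (chromosome 3, 95658788 to 95663176, GRCm38, as are all gene positions below), was at 14098, 15365, 15532.5 and 15974 normalized counts in KO 1 to 4. It was at 16920 in Flox 1, and at 15252, 16583 and 15800.5 in Flox 2 to 4. The groups overlapped, and the limma log2 fold change was -0.083 (SE 0.08, adjusted p = 0.605). It was -0.046 without KO 1 and -0.0014 after adjusting for the GC content and span of genes (the span and GC correction).

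Bcl2, the founding survival gene (chromosome 1, 106538178 to 106714274), was at 2598, 2343, 2616.5 and 2506 in KO and at 2543, 3371.5, 2814 and 2617 in Flox. Flox 2 lay above the other 7 libraries, which ran from 2343 to 2814. Its log2 fold change, -0.17 (SE 0.10) with a limma adjusted p of 0.416, was -0.079 without Flox 2 and -0.32 with the span and GC correction (limma adjusted p = 0.260). Over all alternatives its adjusted p ran from 0.260 to 0.779.

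Bcl2l1, which encodes BCL-XL (chromosome 2, 152780668 to 152831728), was at 7630.3, 6806, 5805 and 6758 in KO and at 7085, 8637, 7951 and 7944 in Flox. KO 3 was the lowest and Flox 2 the highest, and KO 1 lay above Flox 1. The log2 fold change was -0.23 (SE 0.10, limma adjusted p = 0.309).

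The Bcl2a1 genes encode A1, a survival protein induced by NF-kB, and the mouse carries several near-identical copies of the gene. The copies Bcl2a1b (chromosome 9, 89199209 to 89207827) and Bcl2a1d (chromosome 9, 88723285 to 88731914, minus strand) gave most of the reads and differed in how they compared between genotypes. Bcl2a1d was at 411, 394, 191 and 489.6 normalized counts in KO and at 689.7, 789, 826 and 679.8 in Flox. Every KO library lay below every Flox library, with KO 3 lowest. Its log2 fold change was -1.08 (SE 0.24, limma adjusted p = 0.238), and DESeq2 called it lower at -1.0 (adjusted p = 0.00570). Its adjusted p ran from 0.00570 to 0.632 over the alternatives. Without KO 3 the value was -0.79 (limma adjusted p = 0.0516), and without KO 1 and KO 3 it was -0.76. The authors' deposited table gives it a log2 fold change of -1.0 and no p. Bcl2a1b was at 1355, 1039, 1241 and 1161 in KO and at 1334, 1468.5, 1152 and 1075.5 in Flox. These groups overlapped throughout (log2 fold change -0.06, SE 0.12, limma adjusted p = 0.812).

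Reads from such copies can be assigned to the wrong one, so both rows are uncertain, and the copies were also read together. Summed over Bcl2a1a, Bcl2a1b, Bcl2a1c and Bcl2a1d, KO libraries 1 to 4 had 1801, 1459, 1436 and 1690.1 normalized counts and Flox libraries 2074, 2345, 2076 and 1839. The highest KO sum lay just below the lowest Flox sum. The log2 fold change of -0.39 (SE 0.10) did not pass in limma (adjusted p = 0.239, and 0.0541 to 0.780 over the alternatives), and was -0.40 without KO 1 and KO 3. The share of these reads in the Bcl2a1d row was 22.8, 27.0, 13.3 and 29.0% in KO and 33.2, 33.6, 39.8 and 37.0% in Flox. The mean share was 23.0% ± 6.97 in KO and 35.9% ± 3.07 in Flox (SD, n = 4 each; two-sided exact permutation p = 0.0286, the smallest that 4 against 4 allows). This share was computed after the values of the rows had been seen. The minor copies were also lower on average in KO. Bcl2a1a had 3 to 33 reads per library in KO and 38 to 77 in Flox (log2 fold change -1.60, SE 0.53, limma adjusted p = 0.250), and Bcl2a1c had 1 to 19 reads in KO and 15 to 43 in Flox (log2 fold change -2.02, SE 0.64, limma adjusted p = 0.246).

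**Figure D2:**
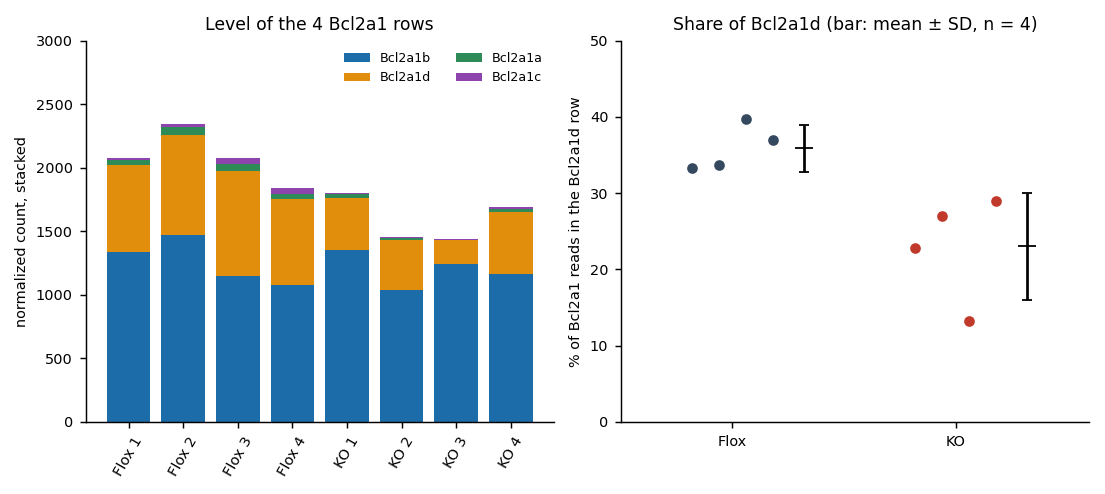
Left, normalized counts of the 4 Bcl2a1 rows stacked per library. Right, the percentage of the reads of these rows that lie in the Bcl2a1d row, per library with the mean and SD (n = 4), where every KO library (13.3 to 29.0%) lies below every Flox library (33.2 to 39.8%).

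The promoters of Bcl2a1b and Bcl2a1d are shown because these copies, though almost the same in sequence, differed in how far apart the genotypes were. Each runs from 250 bases before to 50 after the annotated start (RefSeq, GRCm38.p6), at chr9:89199023-89199322 on the plus strand for Bcl2a1b and at chr9:88731801-88732100 on the minus strand for Bcl2a1d. Capitals mark the bases of Bcl2a1d that mismatch Bcl2a1b in their alignment.
Bcl2a1b: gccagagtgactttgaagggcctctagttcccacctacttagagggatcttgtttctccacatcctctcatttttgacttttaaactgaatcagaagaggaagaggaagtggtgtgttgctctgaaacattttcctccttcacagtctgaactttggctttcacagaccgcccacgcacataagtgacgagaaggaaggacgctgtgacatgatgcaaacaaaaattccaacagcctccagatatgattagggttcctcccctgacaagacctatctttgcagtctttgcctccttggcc
Bcl2a1d: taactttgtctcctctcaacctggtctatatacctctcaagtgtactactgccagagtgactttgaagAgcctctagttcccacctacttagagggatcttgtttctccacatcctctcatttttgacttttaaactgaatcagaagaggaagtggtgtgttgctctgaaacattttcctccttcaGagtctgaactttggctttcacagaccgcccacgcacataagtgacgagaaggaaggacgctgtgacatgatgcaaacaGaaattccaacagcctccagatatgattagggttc
The windows overlap over 256 aligned positions, of which 247 were identical (96.5%), 3 mismatched and 6 were gaps. The promoter of the minor copy Bcl2a1a was 99.2% identical to that of Bcl2a1b. The NF-kB motif, GGG and TTCC with 3 bases of any kind between them, searched on both strands, was in 3 of 16 promoters searched and in 5.56% of all 32851 promoters of this length. The 16 belong to 9 members, without Pmaip1, and to Bcl2a1a and Bcl2a1c. The hits were the promoter of Mcl1, 1 of 3 of Bcl2l1 and 1 of 3 of Bbc3. The FOXO motif GTAAACA was in 2 of the 16, 1 of 3 of Bbc3 and 1 of 2 of Bcl2l11, and in 3.65% of all. The E2F motif TTTCCCGC was in 0 of the 16 and in 1.07% of all. The NF-kB and E2F motifs share the letters TTCC, and each hit is a match of letters, not a measured site. On chromosome 9 from Nt5e (start 88327197) to Mthfs (end 89377713), a stretch that holds Bcl2a1a, Bcl2a1b and Bcl2a1d, the 10 other tested rows had log2 fold changes from -0.36 to 0.51, and 1 of them, Snhg5, a host of small nucleolar RNAs, had an unadjusted limma p under 0.05 (-0.27).

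Of the BH3-only members, Pmaip1 and Bbc3 were lower in every KO library and Bcl2l11 was not. Pmaip1, which encodes NOXA, a partner of MCL1 (chromosome 18, 66458604 to 66465550), was at 2095, 1642, 2576 and 2485 normalized counts in KO and at 2748, 3097, 3405 and 3069 in Flox. KO 2 was the lowest, and the highest KO library lay below the lowest Flox library. In limma its log2 fold change was -0.50 (SE 0.14, adjusted p = 0.239), and -0.60 without KO 1 and KO 3. DESeq2 called it lower at -0.49 (adjusted p = 0.0491), its adjusted p ran from 0.0491 to 0.779 over the alternatives, and the authors' deposited table gives an adjusted p of 0.0522.

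Bbc3, which encodes PUMA, a p53 target (chromosome 7, 16308393 to 16318205), was at 1655, 1608, 1177 and 1545 in KO and at 1665, 1794, 2070.3 and 2092 in Flox. The groups came close at KO 1 and Flox 1, and KO 3 was lowest. Its log2 fold change was -0.35 (SE 0.12, limma adjusted p = 0.258), and -0.27 without KO 1 and KO 3. Bcl2l11, which encodes BIM (chromosome 2, 128126038 to 128162547), was at 8255, 7561, 7593 and 8302 in KO and at 6897, 8247, 7624 and 8424 in Flox. The KO values lay inside the range of Flox (log2 fold change 0.03, SE 0.09, limma adjusted p = 0.901).

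The pore formers differed in sign. Bak1 (chromosome 17, 27019810 to 27029009) was at 4862, 3660.5, 4802 and 3456 in KO and at 3343, 3241, 3394 and 3286 in Flox. All KO libraries lay above all Flox libraries, by a wide margin in KO 1 and KO 3 and a narrow one in KO 2 and KO 4. The log2 fold change was 0.32 (SE 0.12, limma adjusted p = 0.265), and 0.10 without KO 1 and KO 3. Ggnbp1, at a mean of 54.3 normalized counts, overlaps Bak1 on the other strand, and the sources do not say whether counting used strand. Bax (chromosome 7, 45461697 to 45466898) was at 7106, 8532.5, 4729 and 6696 in KO and at 7318, 7226, 7495 and 7828 in Flox. The KO libraries spread on both sides of Flox, and a limma log2 fold change of -0.17 (SE 0.15) with an adjusted p of 0.566 became -0.011 without KO 3 and -0.30 without KO 2, the highest KO library. It was -0.077 with the span and GC correction.

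**Figure D3:**
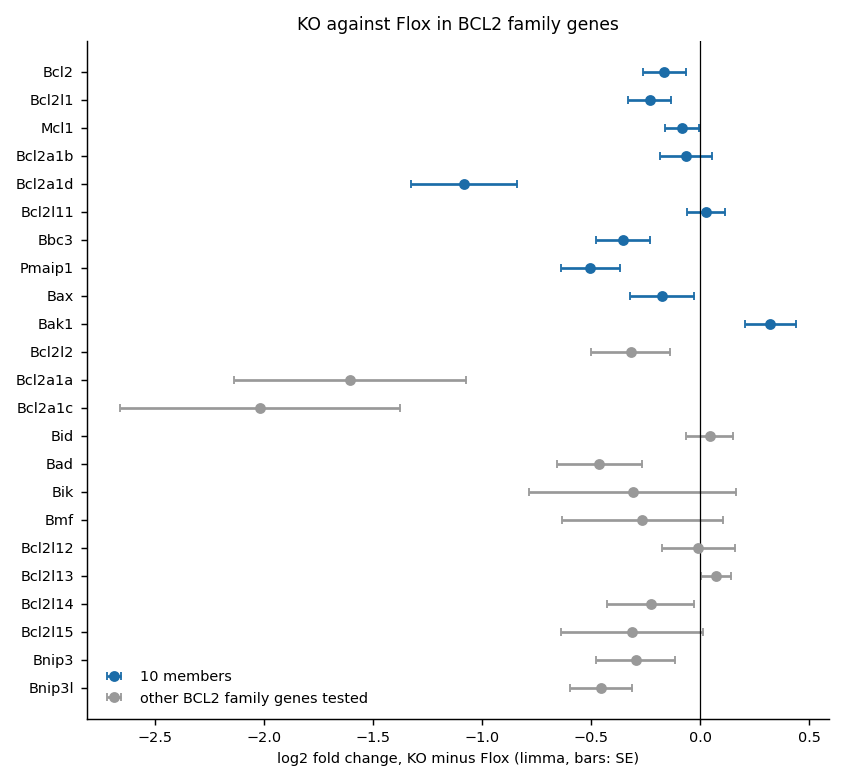
Log2 fold change of KO against Flox from limma (horizontal axis, bars give the SE) for the 10 members and the 13 other BCL2 family genes tested. Bcl2a1d, at -1.08, is the lowest member and Bak1, at 0.32, the highest, while Bcl2a1a and Bcl2a1c lie lower with wide errors.

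The other genes of the pathway were read from lists of 89 genes, of which 82 were tested and 0 passed in limma. By unadjusted limma p under 0.05, 9 were higher and 9 lower in KO, 11.0% each way, against 7.74% and 7.39% of all genes tested. Their median log2 fold change was 0.0049, against -0.0078 over all genes, of which 48.5% were positive and 51.5% negative. DESeq2 called 1, Huwe1, as higher. Among the other BCL2 family genes 11 of 13 had a negative log2 fold change (median -0.31), against 51.5% of all genes. By unadjusted limma p under 0.05, 4 were lower, against 7.39% of all genes, and 0 higher. Besides Bcl2a1a and Bcl2a1c these were Bnip3l, a receptor for the removal of mitochondria, with means of 3844 ± 712 normalized counts (KO) and 5243 ± 784 (Flox) (SD, n = 4; log2 fold change -0.45), and Bad, a BH3-only gene, at -0.46. Within Flox, Bnip3l was at 4417 and 4757 in replicates 1 and 2 and at 6079 and 5717 in replicates 3 and 4. Bcl2a1a and Bcl2a1c are low copies of the members Bcl2a1b and Bcl2a1d, so these counts are not independent of the members. Bcl2l10, Bok and Hrk were below the filter on low values.

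Of the inhibitors of apoptosis 6 of 7 had a positive log2 fold change, against 48.5% of all genes, with a median of 0.21. By unadjusted limma p under 0.05, 2 were higher, Birc6 and Birc3, against 7.74% of all genes. Birc6, a large ubiquitin ligase of this class, was at 7944 ± 1230 in KO and 5851 ± 1013 in Flox (SD, n = 4; log2 fold change 0.44, SE 0.14), and Birc3, an NF-kB induced ligase, was at 7433 ± 382 and 6300 ± 336 (0.24, SE 0.08). In both genes the KO and Flox libraries did not overlap, and neither passed in limma (adjusted p = 0.244 and 0.246). Within Flox, Birc6 was at 6763 and 6691 in replicates 1 and 2 and at 4910 and 5041 in replicates 3 and 4. Naip2 was at 0.21 (SE 0.13). Among genes that control turnover of BCL2 proteins 6 of 9 were positive, with a median of 0.06. Huwe1, the ubiquitin ligase that marks MCL1 for destruction, was at 26179, 21947.5, 27539.7 and 22882 in KO and at 20319.5, 20062, 14673 and 14839 in Flox. All its KO libraries lay above all Flox libraries (log2 fold change 0.51, SE 0.13, limma adjusted p = 0.239). Usp9x, a deubiquitinase that stabilises MCL1, was at 0.32 (SE 0.11), also without overlap, and Fbxw7, a part of an MCL1 ubiquitin ligase, was at 0.20 with overlap. Flox replicates 3 and 4 were again lower than 1 and 2 in Huwe1 and in Usp9x (3063 and 3062 against 3856 and 3802). What set these replicates apart was not tested.

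In the other lists the median lay between -0.03 and 0.08. Of the apoptosome and caspase genes 6 of 14 were positive (median -0.03), with Casp2 at 0.24, the cytochrome c gene Cycs at -0.49 and Casp6 at -0.20. Of the death receptor genes 7 of 10 were positive (median 0.02), with the necroptosis kinases Ripk3 at -0.32 and Ripk1 at 0.45 and their effector Mlkl at 0.20. In the p53 list 6 of 14 were positive (median -0.03), with Phlda3 at -0.44, Trp73 at -0.81 on means of 23.5 and 37.45 normalized counts, and the CDK inhibitor Cdkn1a at -0.29. In the survival signalling list 9 of 15 were positive (median 0.08), with the kinase Pim3 at -0.40 and the transcription factors Stat3 and Foxo1 at 0.24 and 0.27. None of these named genes passed in limma.

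Ago2 CLIP bins covered all 10 members. Counting both conditions together, a bin's depth is the mean number of reads over its 5 bases, and the read bases of a gene are the bases of all reads on its strand. Replicates were pooled before the deposit, so CLIP values have no error between samples and no test. Bcl2 had 331952 read bases, Bcl2l11 254008, Mcl1 246402 and Pmaip1 117815. These 4 stood at percentiles 94.7 to 99.0 of the 11582 tested protein-coding genes, whose median was 5171. Bcl2l1 had 64959, Bcl2a1b 44867, Bcl2a1d 44163 and Bbc3 25599, and the pore formers Bak1 and Bax had 8194 and 6145, near the middle of all genes. Per 1000 nt of gene span, introns included, Mcl1 had 56141 read bases, Pmaip1 16959 and Bcl2l11 6957, at percentiles 99.8, 98.8 and 97.0. Bcl2a1b had 5206, Bcl2a1d 5117, Bbc3 2609, Bcl2 1885, Bcl2l1 1272, Bax 1181 and Bak1 891, against a median of 238 over all genes. On this per-length scale all 10 members lay above the median, Bak1 lowest at percentile 75.6. Per normalized RNA count, Bax had 0.864 read bases and Bak1 2.18, against a median of 4.95 over all genes. Pmaip1 had 44.6, Bcl2l11 32.3, Mcl1 15.7, Bbc3 15.1 and Bcl2l1 8.87. Bcl2 had 124, Bcl2a1d 79.1 and Bcl2a1b 36.5. This ratio takes read bases over the whole span, 176097 nt in Bcl2, and RNA counts that are not per length. It therefore does not rank members by binding per transcript. The Bcl2a1 copies share most of their sequence, so their CLIP reads, like their RNA reads, may be split wrongly.

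Where Ago2 reads lay differed between members. In Pmaip1 96.2% of read bases were within 2000 nt of the annotated 3′ end, in Bak1 92.7%, in Mcl1 77.7%, in Bbc3 77.1%, in Bax 58.0% and in Bcl2l11 51.6%. It was 44.8% in Bcl2a1d, 42.6% in Bcl2a1b, 28.4% in Bcl2l1 and 2.10% in Bcl2. The median over the 10219 genes with a bin was 35.7%, so 8 members lay above it and Bcl2l1 and Bcl2 below. The gene spans run from 4389 nt in Mcl1 to 176097 nt in Bcl2, and a long span leaves a smaller part of the gene inside this window. The deepest bin of Bcl2, at a depth of 207.6, was 5017 nt from the 3′ end. Exons, introns and untranslated parts were not told apart here. The deepest bin in Mcl1 was at a depth of 574.8 and 1497 nt from the 3′ end, in Bcl2l11 at 432 and 88 nt, in Pmaip1 at 344 and 61 nt, and in Bbc3 at 314 and 106 nt. Bcl2a1b and Bcl2a1d were deepest at like distances from the 3′ end, 222 at 138 nt and 229.8 at 145 nt. In Bcl2l1 the deepest bin was at 94.2 and 282 nt, in Bak1 at 54.8 and 925 nt, and in Bax at 25.6 and 43 nt.

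**Figure D4:**
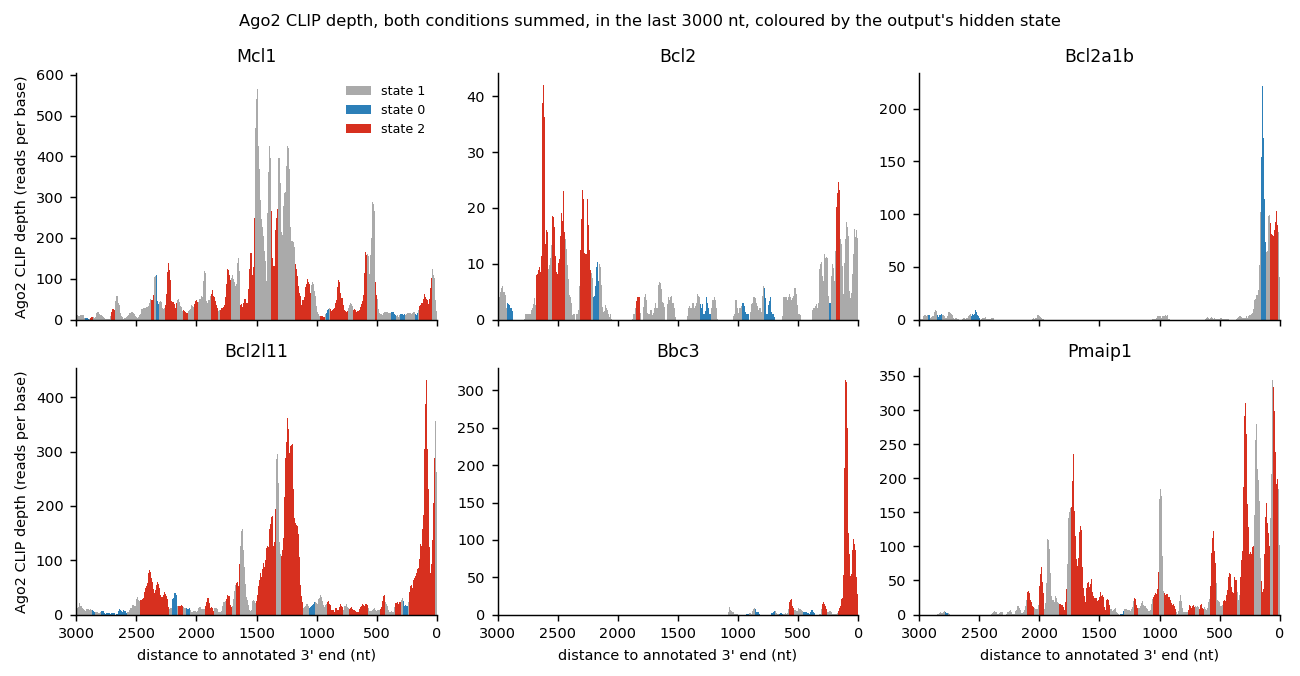
Ago2 CLIP depth (reads per base, both conditions summed) near the 3′ end of 6 members, with distance to the annotated 3′ end on the horizontal axis and the hidden state of each bin in colour. The deepest bins of Bcl2l11 (432) and Bbc3 (314) are in state 2, those of Mcl1 (574.8), Bcl2 (207.6, outside the plotted range) and Pmaip1 (344) in state 1, and that of Bcl2a1b (222) in state 0.

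The deposited dCLIP output compares a pair of conditions without naming which is KO, so its differences are given with their sign and no genotype. Each bin has a hidden state, with a mean difference of -0.24 in state 0, -0.01 in state 1 and 0.27 in state 2. Over the bins of all tested protein-coding genes 6.25% were in state 2 and 21.2% in state 0. In Pmaip1 44.8% of bins were in state 2 and 2.17% in state 0, and in Mcl1 28.1% and 8.29%. Bcl2l11 had 13.9% in state 2, Bbc3 11.4%, Bcl2a1b 10.2%, Bak1 9.03%, Bcl2a1d 7.93%, Bax 7.60%, Bcl2 6.59% and Bcl2l1 3.11%. Bin shares count shallow and deep bins alike and were not matched for depth. The share of read bases in state 2 was also ranked among the 3067 genes with at least 20000 read bases. There Bbc3, Pmaip1 and Bcl2l11 were at percentiles 99.8, 99.3 and 98.7, Mcl1 at 88.7 and Bcl2a1b at 85.2. Bcl2a1d, Bcl2 and Bcl2l1 were at 71.0, 52.8 and 44.7. Bak1 had 40.1% of its bins in state 0, the largest share among the 10, and the 7 members not yet named for this state had 11.8 to 22.3%. Bak1 had few read bases, and by read bases its state 0 share was 24.1%, at percentile 62.7 of the genes with a bin.

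Weighted by read bases, the mean difference was 0.182 in Pmaip1, 0.160 in Bcl2l11 and 0.149 in Bbc3. These, the 3 BH3-only genes among the members, were at percentiles 99.2, 98.8 and 98.6 of the 10219 genes with a bin, whose median was -0.02. Other BH3-only genes were not read out, so this does not describe the class. Differences varied more in genes with few reads, so the rank was also taken among the 3067 genes with at least 20000 read bases, a limit set after the values had been seen. There the 3 genes were at percentiles 99.6, 99.3 and 99.0, and the median of these genes was 0. Mcl1 followed at 0.0971, percentile 94.8 of these genes. The other survival genes lay closer to the middle, with Bcl2a1b at 0.0454, Bcl2a1d at 0.0220, Bcl2l1 at 0.0185 and Bcl2 at 0.0176, percentile 63.8. Bax was at 0.0611 and Bak1 at -0.01, both under that limit. In RNA-seq the 3 BH3-only genes had log2 fold changes of -0.50, 0.03 and -0.35 in the order Pmaip1, Bcl2l11, Bbc3. The CLIP differences were not adjusted for RNA level, and the part of RNA level in them was not tested.

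**Figure D5:**
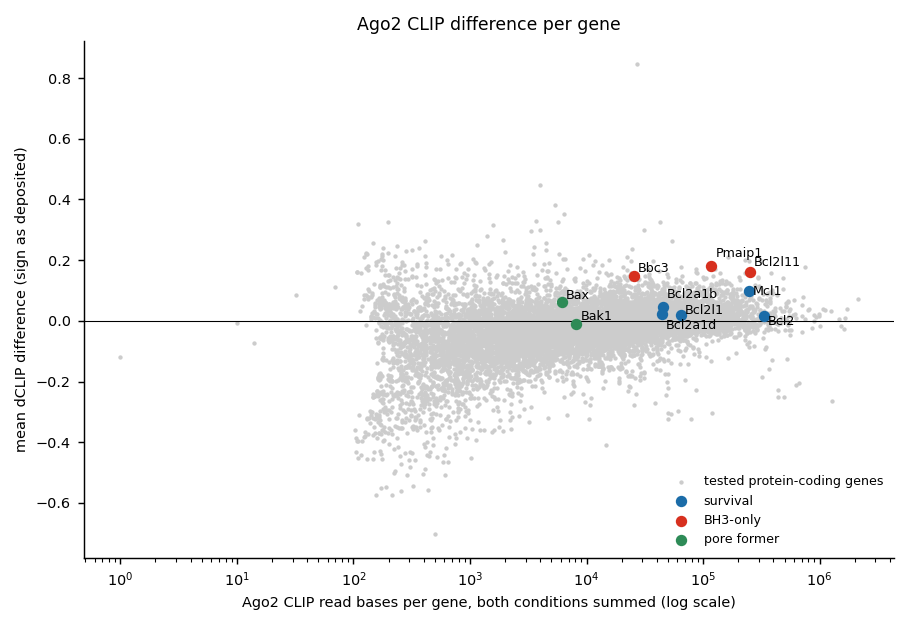
Mean dCLIP difference per gene, weighted by read bases (vertical axis, sign as deposited), against Ago2 CLIP read bases (horizontal axis, log scale) for tested protein-coding genes (grey) and the 10 members in colour by role. The 3 BH3-only members, at 0.149 to 0.182, lie at the upper edge of genes of like depth, and Bcl2, Bcl2l1 and Bcl2a1d lie near 0. Other BH3-only genes are not marked.

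Touching bins of the same state formed 1915 regions in the members, each of which carries a score in the deposited summary. The score is the authors' and ranks regions within their list. How it is formed is not given here, and it does not follow depth alone. The deepest bins of Mcl1, Bcl2 and Pmaip1 were in state 1, while no region among the highest-scoring ones of any member was. A high score is therefore not read as strong binding. The highest-scoring region of each member was in state 2 except in Bcl2a1b. In Pmaip1 it was chr18:66465495-66465529 with a score of 158, 21 nt from the 3′ end, and in Bcl2l11 chr2:128161245-128161429 with a score of 132.6, 1118 nt from it. In Bcl2l11 the next regions, chr2:128162315-128162529 and chr2:128161040-128161209, scored 98.8 and 75.5. In Mcl1 the highest was chr3:95661795-95661849 with a score of 128.4, and in Bbc3 chr7:16318030-16318209 with 58.2, which reaches the 3′ end. The Bbc3 region alone held 16468 of that gene's 25599 read bases, and its mean difference was 0.234.

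In Bcl2a1b the highest score, 73.0, was in state 0 at chr9:89207670-89207714 (mean difference -0.23), and the next, 58.9, was in state 2 at chr9:89207745-89207809 (mean difference 0.38). Regions of opposite sign thus lay close together, the state 0 region 113 nt and the state 2 region 18 nt from the 3′ end. In Bcl2a1d the highest, chr9:88723340-88723374, scored 61.3 at 55 nt. The highest scores in Bcl2l1, Bcl2, Bak1 and Bax were 43.6, 35.9, 14.2 and 9.0. Scores of at least 5 were found in 228 of the 1915 regions (11.9%), near the 12.1% of all 962700 regions of the deposited summary. By member the share was 43.1% in Mcl1 (25 of 58), 36.6% in Pmaip1 (15 of 41), 19.7% in Bcl2a1d (13 of 66), 16.7% in Bak1 (4 of 24) and 16.6% in Bcl2l11 (51 of 307). It was 15.0% in Bcl2a1b (12 of 80), 11.1% in Bax (2 of 18), 8.81% in Bcl2 (93 of 1056), 7.14% in Bbc3 (3 of 42) and 4.48% in Bcl2l1 (10 of 223). Positions of CLIP regions are as the files give them in 5-nt bins.

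By the likeness of their normalized counts over the 8 libraries, taken on a log2 scale among 10959 genes with a mean of at least 50, Bax was closest to Timm50, a part of the mitochondrial import machinery (Pearson r = 0.99). Bbc3 was closest to Dgat1, an enzyme of triglyceride synthesis (r = 0.99), and Bcl2l1 to Gstt3 (r = 0.99). Pmaip1 was closest to Anxa4 (r = 0.98), Bak1 to Mef2d (r = 0.99), Bcl2a1d to Hdhd5 (r = 0.99), Bcl2 to Thrb (r = 0.97), Mcl1 to Selenos (r = 0.96), Bcl2l11 to Gm19569 (r = 0.96) and Bcl2a1b to Myb (r = 0.92). Each is the best of 10959 over 8 libraries that share depth and scaling, and is given as a description only.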

How the data were processed

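The members and gene lists were chosen with earlier results of these data known. The authors deposited gene counts divided by 1 size factor per library, a signal rounded to 1 decimal. The deposited table also holds log2 variance-stabilized values, the authors' log2 fold change and fold ratio, their p-values, and the percent GC of each gene, per the file headers. Its columns name the Flox libraries WT. The submitters' processing notes list STAR, Bowtie2, SAMtools, cutadapt, DESeq and DESeq2, and the build mm9, without roles, while the gene positions in the table are those of GRCm38. The deposited dCLIP output holds, per 5-nt bin, a difference score, a hidden state and the read bases of 2 unnamed conditions pooled over replicates, which were only used as their sum. The deposited summary holds a score per region. These files name no build, and on the table's gene positions 94.0 to 100% of each member's read bases lay on its own strand.

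Every value came out as a whole number of reads within 0.1 read (100% of values in each library). The main test was limma 3.58.1 with a mean-variance trend, two-sided, on normalized counts as log2(value + 1), with Benjamini-Hochberg adjustment over 13091 genes with a mean of at least 10. Adding 1 shrinks the fold change of low genes on that scale. The low rows Bcl2a1a and Bcl2a1c were still at -1.60 and -2.02 there, against -1.36 and -2.01 in the authors' deposited values. The edgeR test (4.0.16) on the recovered reads called 9 genes and DESeq2 (1.42.0) 213. The limma script was tested on simulated data. Alternatives also covered scaling, filters, pseudocount, voom, weights, left-out libraries and an adjustment for GC content and gene span. In each list the 3 genes with the smallest p were named, beside all members. In each member the regions with the highest scores (up to 3) were named, and the gene most like it over the libraries. Bad, Snhg5, Prf1 and the genes below the filter were named after their values were seen. CLIP regions are runs of touching bins in 1 state, on the strand of the gene.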

Additional observations from a re-analysis of the deposited data

How the results depend on the processing

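Each member was refitted under 21 alternatives. The count of members past the adjusted threshold was 0 in all of them except DESeq2, which called 2, and the count among the other cell death genes was 0 in all except DESeq2, which called 1 (Huwe1). The summed Bcl2a1 copies stayed lower in KO and under no alternative passed the threshold, with log2 fold changes of -0.45 to -0.33 when 1 library was left out. Signs turned for members close to 0: Bcl2a1b ran from -0.14 to 0.014 when 1 library was left out (0.0019 without KO 2 and 0.014 without Flox 2) and Bcl2l11 from -0.031 (without Flox 1) to 0.065. Bcl2l11 was also at -0.015 with the span and GC correction, with or without the replicate block, and Bax at 0.018 without KO 1 and KO 3. The cause was not tested. With the replicate block the count of members called was 0 and the summed copies were at -0.39. A term for replicate numbers 1-2 against 3-4 called 0 members and 0 of the other cell death genes. Same-numbered KO and Flox libraries correlated at -0.094, -0.065, -0.050 and 0.0027 in their deviations from the group means. Libraries with different numbers ran from -0.16 to 0.22. These values cannot settle whether the replicate numbers pair the libraries. The stricter filter, which tests 11394 genes, called 3 genes in all, and no filter called 9. Without KO 2 it was 17, without KO 4 it was 14, and library weights gave 16. Of the members' CLIP regions 9.92% lay within 2000 nt of the 3′ end, 6.63% within 1000 nt and 18.4% within 5000 nt. It was 25.4% among regions with a score of at least 5. When touching bins were joined whatever their state, an alternative added after the data were seen, it was 6.27%. These pooled shares mostly follow Bcl2, which held 1056 of the 1915 regions, 18 of them within 2000 nt. By member the count within 2000 nt was 21 of 24 in Bak1, 29 of 41 in Pmaip1, 25 of 307 in Bcl2l11 and 23 of 223 in Bcl2l1. The share of regions over all genes was not computed.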
